A study of Mus musculus with 16 samples.

Results

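The mouse genes described here are the solute carriers (SLC), membrane proteins that move nutrients, metabolites and ions across the plasma membrane and the membranes of organelles. Probe sets whose platform annotation gave 1 symbol of the form Slc, number, letter, number were collected, the probe set with the highest mean over all 16 arrays stood for each gene, and a gene was kept where that mean intensity was at least 30. This left 121 genes of 261 SLC genes with such a probe set, among 12393 genes with a 1-symbol probe set in all. The choice used only this mean level, which is therefore a description. Genes were grouped by SLC family number under the main substrate of the family, so a single gene can carry another substrate. The 121 genes comprised 26 mitochondrial carriers, 22 metal transporters, 20 transporters of amino acids, peptides and related solutes, and 18 of sugars and nucleotide sugars. A further 14 were of inorganic ions or linked to pH, 12 of vitamins, nucleosides and lipids, 7 of monocarboxylates and organic ions, and 2 others. For 3 of the 121 (Slc4a1ap, Slc9a3r1 and Slc9a3r2), all in the inorganic ion group, the symbol names a protein that binds or neighbours a carrier, not a carrier.

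The samples were mouse embryonic stem (ES) cells of mixed 129/C56Bl/6 background, labelled WT or KO, the latter carrying only inactivated copies of 1 gene, from lines derived from single blastocysts of a heterozygote intercross. RNA came from growing cells (3 arrays per genotype), from cells 2 h after 8 Gy of gamma irradiation (3 per genotype), and from cells 24 h after gamma irradiation (2 per genotype), for which the sources used here give no dose. Every group was cultured on feeder fibroblasts (mouse embryonic, treated with mitomycin) in the presence of LIF, and trypsinised cells were left on gelatin for 1 h to remove these feeders. The labels do not say that the replicates were separate cultures or lines. The p-values therefore describe only how far these samples spread, and that spread may be technical. No unirradiated cells kept for the same time were among the samples, so irradiation and time in culture cannot be told apart. In bulk RNA, fewer cells of a type and less RNA per cell cannot be told apart either.

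Array medians of the intensity lay between 26.7 and 37.4, and the number of arrays limits the precision. Grouped by hybridisation clock time, the arrays fell into 4 hybridisation runs. An 18S rRNA signal above 300 was found on 2 arrays (KO 2 h replicate 2 and replicate 1 of growing WT cells). The pluripotency genes Pou5f1 (Oct4), Sox2 and Nanog were well measured in all groups, with group means of Pou5f1 from 904 (WT, 24 h) to 1414 (KO, 2 h). At 24 h Pou5f1 fell by 0.48 (adjusted p = 0.0017) and Utf1 fell by 0.73 (adjusted p = 0.0035) in limma, on the log2 scale described below. Of 8 pluripotency genes tested, 2 were called at 24 h, both lower, against 7.98% lower among all probe sets. The median change of the 8 was -0.13. Among 11 fibroblast markers tested in limma, the lowest adjusted p at 24 h over both genotypes was 0.10 (Fn1, which alone passed in WT, at 0.52), and in KO against WT over the states it was 0.71 (Lum). The 12 fibroblast markers summed to between 1569 and 3683 on WT growing arrays and between 2313 and 2923 on WT arrays at 24 h, and to between 2132 and 3106 and between 2583 and 2638 on the KO ones.

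As background, amino acid carriers of the SLC7 family work either alone, as the cationic amino acid transporters do, or as a light chain joined to the heavy chain Slc3a2, as Slc7a5 (LAT1) does to exchange large neutral amino acids. Slc2a1 and Slc2a3 (GLUT1 and GLUT3) let glucose enter along its gradient, and SLC25 proteins link the mitochondrial matrix to the cytosol. ES cells are known for rapid division, a high glycolytic rate and a strong demand for amino acids. In damaged cells, Slc19a2, which takes up thiamine (vitamin B1), has been described as a direct target of the transcription factor p53 in mouse.

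RefSeq promoter windows of assembly GRCm38.p6 were matched for 91 of the 121 genes, and the 250 bases upstream of the start are shown for the genes that carry the 2 h result (Slc19a2), the main glucose transporter result (Slc2a1) and the deepest fall at 24 h (Slc27a2). All 3 windows lie on the plus strand, Slc19a2 at chr1:164248796-164249045, Slc2a1 at chr4:119108495-119108744 and Slc27a2 at chr2:126552774-126553023. Capitals mark a GC box (GGGCGG) or the letters ACGTG, each on either strand.
Slc19a2: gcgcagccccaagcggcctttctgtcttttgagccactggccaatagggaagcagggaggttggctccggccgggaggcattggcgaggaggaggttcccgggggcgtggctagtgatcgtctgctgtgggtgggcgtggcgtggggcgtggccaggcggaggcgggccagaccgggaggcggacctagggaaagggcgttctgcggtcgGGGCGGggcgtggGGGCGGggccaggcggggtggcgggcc
Slc2a1: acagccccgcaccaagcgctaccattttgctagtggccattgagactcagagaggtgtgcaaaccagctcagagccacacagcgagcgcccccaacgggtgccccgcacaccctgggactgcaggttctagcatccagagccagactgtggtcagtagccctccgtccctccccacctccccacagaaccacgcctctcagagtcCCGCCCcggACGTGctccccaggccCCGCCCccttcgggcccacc
Slc27a2: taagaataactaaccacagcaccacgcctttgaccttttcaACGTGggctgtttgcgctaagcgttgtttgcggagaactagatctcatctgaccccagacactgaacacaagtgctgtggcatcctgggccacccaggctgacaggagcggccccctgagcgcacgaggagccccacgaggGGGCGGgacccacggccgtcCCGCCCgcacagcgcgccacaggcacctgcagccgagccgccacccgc
Each of the 3 windows held 2 GC boxes, and Slc2a1 and Slc27a2 also held 1 ACGTG each. Over all 32851 RefSeq windows of this length, 32.7% held a GC box and 16.6% an ACGTG. Of the 128 windows of the SLC genes 66.4% held a GC box and 24.2% an ACGTG, and TGATGNAA was found in 2.34% of them against 3.45% of all. The SLC genes had been kept by their level and the other windows had not, so these shares are not matched for level. Each motif was searched on both strands, and a match is a description of the letters in the window.

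The levels spanned from a mean of 30.3 to one of 2740 over the 16 arrays, with quartiles at 47.3, 70.4 and 168. The genes just inside the level of 30 were Slc25a53 (30.3), Slc9b1 (30.7) and Slc29a4 (31.5), and those just outside were Slc24a3 (29.9), Slc16a11 (29.5) and Slc27a1 (29.4). Among the 140 genes left out were the arginine transporter Slc7a1 (24.3), the cystine exchanger Slc7a11 (12.4), Slc22a18 (16.1) and the metal importer Slc39a8 (6.29). All 121 passed the filter on low values. In 19 of them at least 1 group had a mean under 30, and such genes could have been kept through their higher groups. Changes below are differences between group means of log2(intensity + 16), which understate the change of dim genes, and ± gives the standard error. The residual SD of a gene on this scale had a median of 0.21 and ran from 0.09 to 0.42. For 42 genes all 6 group means lay within 1.5-fold of each other, and for 18 the highest mean was at least 2-fold the lowest.

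The main change in these genes came 24 h after irradiation and was shared by both genotypes. The amino acid carriers Slc7a5 and Slc7a3 and the fatty acid protein Slc27a2 fell, while the glucose carriers Slc2a1 and Slc2a3, the sulfate carrier Slc26a2, the bicarbonate exchanger Slc4a8, the iron exporter Slc40a1 and the creatine carrier Slc6a8 rose. Over the mean of both genotypes, 24 genes rose and 16 fell at an adjusted p under 0.05 in limma, 33.1% of the 121 (19.8% higher and 13.2% lower). Among all 17736 probe sets tested the share was 21.0% (13% higher and 7.98% lower), and among 6937 genes picked by the same probe set and level rule it was 28.6%, so the number called was close to that of other genes of similar level. The median change was 0.08 for the SLC genes and 0.07 for all probe sets. Of the 40 called genes, 32 had 24 h arrays apart from the growing arrays in both genotypes, 7 in 1 genotype, and 1 in neither. The 40 were called on these same arrays, and no share of all probe sets stands beside these counts, so they are descriptions. Of these 40, 35 had every group mean at 30 or above, and the other 5 were Slc4a8, Slc6a15, Slc22a7, Slc29a4 and Slc31a2. Over the 12 growing and 2 h arrays alone, Slc29a4 had a mean of 26.98 and Slc31a2 one of 29.8. These 2 were kept only through their higher 24 h arrays, so their rises are descriptions. The counts and shares of rises at 24 h include them and carry the same limit. The shares of the substrate groups below rest on 7 to 26 genes each and are to be read against these 21.0% and 28.6%.

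**Figure D1:**
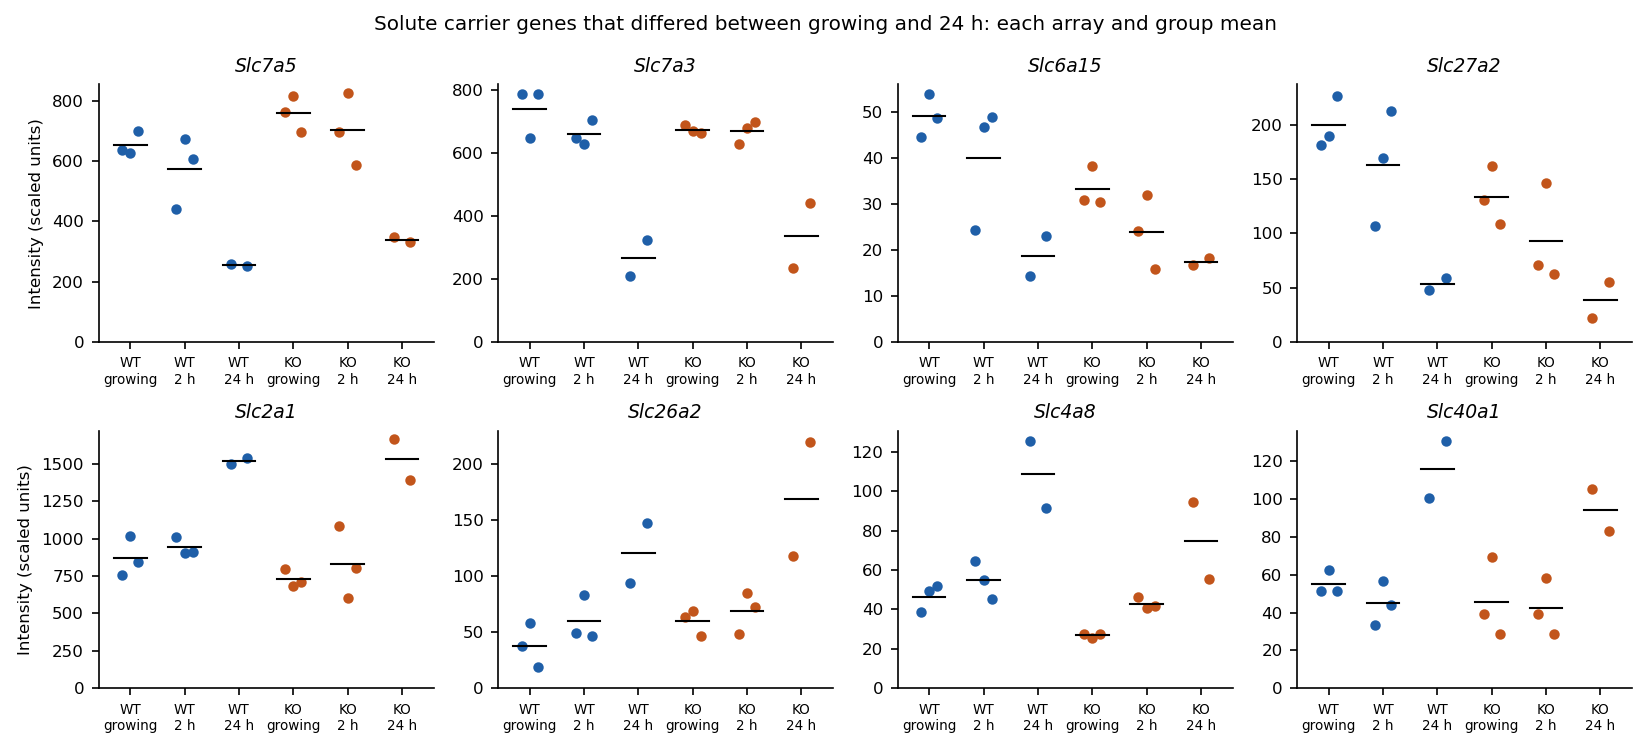
Intensity (scaled units, linear axis from 0) of 8 SLC genes in the 6 groups; points are arrays (blue WT, orange KO) and bars are group means. Slc7a5 falls from between 628 and 814 in growing cells to between 251 and 347 at 24 h, and Slc2a1 rises from between 680 and 1018 to between 1394 and 1665.

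Among the amino acid carriers, Slc7a5 read 637, 628 and 699 in growing WT cells and 257 and 251 at 24 h. In KO cells Slc7a5 read 763, 814 and 696 growing and 347 and 330 at 24 h. All 24 h arrays lay below all growing arrays in both genotypes, and the change was -1.31 ± 0.16 in WT (adjusted p = 0.00014) and -1.12 ± 0.16 in KO (adjusted p = 0.00073). At 2 h Slc7a5 read 442, 674 and 606 in WT and 695, 825 and 587 in KO, which overlapped the growing arrays, and it was not called. The cationic amino acid transporter Slc7a3 (CAT3) read 788, 648 and 786 in growing WT cells and 208 and 324 at 24 h. In KO cells Slc7a3 went from 688, 669 and 664 to 234 and 441. The groups did not overlap in either genotype, the first 24 h array was the lower one in both, and the change over both genotypes was -1.24 ± 0.14 (adjusted p = 1.1e-05).

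Slc7a7 (y+LAT1), another light chain of Slc3a2, fell by 0.68 ± 0.16 (adjusted p = 0.0041). Without KO 24 h replicate 1 the change of Slc7a7 was -0.45, and without both first 24 h arrays it was -0.31 and no longer called. Slc6a15, a transporter of branched-chain amino acids and proline, fell by 0.74 ± 0.15 (adjusted p = 0.0024), from 44.6, 54.1 and 48.8 to 14.3 and 23.1 in WT. The shared heavy chain Slc3a2 itself did not pass the test, at -0.29 ± 0.11 (adjusted p = 0.058), with 1126, 1263 and 973 in growing WT cells and 1007 and 780 at 24 h. The glutamine carriers did not pass either: the change was 0.13 ± 0.12 for Slc1a5 (ASCT2), -0.36 ± 0.13 for Slc38a1 (adjusted p = 0.060) and -0.14 ± 0.12 for Slc38a2. Slc1a4 (ASCT1) stood at -0.23 ± 0.14, also not called. In this group 3 genes rose: the creatine transporter Slc6a8 by 0.70 ± 0.12 (adjusted p = 0.00040), the peptide transporter Slc15a2 by 0.56 ± 0.15 (adjusted p = 0.011) and the neutral amino acid carrier Slc38a4 by 0.45 ± 0.10 (adjusted p = 0.0033). In all, 3 of the 20 rose and 4 fell (35% called, against 21.0% of all probe sets and 28.6% of genes picked by the same rule), with a median change of -0.15.

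The glucose transporters Slc2a1 and Slc2a3 rose. Slc2a1 read 758, 1018 and 840 in growing WT cells and 1497 and 1540 at 24 h, and 798, 680 and 708 against 1665 and 1394 in KO. Neither genotype's groups overlapped, and the rise was 0.80 ± 0.18 in WT (adjusted p = 0.011) and 1.05 ± 0.18 in KO (adjusted p = 0.0024). The other 2 probe sets of Slc2a1 rose by 0.99 and 0.77 over both genotypes. Over both genotypes Slc2a3 rose by 0.56 ± 0.13 (adjusted p = 0.0041). It went from 2218, 2646 and 2149 to 3123 and 3114 in WT and from 1938, 1753 and 1837 to 3736 and 2413 in KO. By genotype Slc2a3 was called in KO (0.70 ± 0.18, adjusted p = 0.024) but not in WT (0.42 ± 0.18, adjusted p = 0.17). Its 3 other probe sets gave larger rises, of 0.91, 1.29 and 1.23. Of the 18 sugar and nucleotide sugar carriers (22.2% called, near the 21.0% of all probe sets), 2 others were called, both lower: Slc35a4 fell by 0.50 ± 0.09 (adjusted p = 0.00067) and Slc35b1, which exchanges ATP and ADP across the endoplasmic reticulum membrane, fell by 0.30 ± 0.10 (adjusted p = 0.039).

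Carriers of lipids and of vitamins moved in both directions. Slc27a2, which activates very long-chain fatty acids and takes part in their uptake, showed the largest fall of the 121 genes. It read 182, 190 and 227 in growing WT cells and 47.7 and 58.5 at 24 h, and 130, 162 and 109 against 22 and 55.0 in KO. All 24 h arrays lay below all growing arrays of their genotype, with a change of -1.58 ± 0.21 over both (adjusted p = 5.4e-05). The folate carrier Slc19a1 fell by 0.47 ± 0.12 (adjusted p = 0.0090) and the nucleoside transporter Slc29a1 (ENT1) fell by 0.40 ± 0.09 (adjusted p = 0.0036). The choline transporter Slc44a1 rose by 0.51 ± 0.18 (adjusted p = 0.043) and Slc19a2 by 0.59 ± 0.10 (adjusted p = 0.00031). The monoamine transporter Slc29a4, kept only through its 24 h arrays, stood at 0.53 ± 0.15. Thus 3 of 12 were called higher, Slc29a4 among them, and 3 lower. The 50% called stood against 21.0% of all probe sets and 28.6% of genes picked by the same rule. It includes Slc29a4, rests on 12 genes and is a description.

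Of the 14 genes in the inorganic ion group, 3 of them not carriers, 4 rose and 2 fell. This made 42.9% against 21.0% of all probe sets and 28.6% of genes picked by the same rule. The sulfate transporter Slc26a2 had the largest rise of the 121 genes, from 37.6, 58.1 and 18.8 to 94.1 and 148 in WT and from 64, 68.9 and 46.7 to 119 and 220 in KO. Both 24 h arrays lay above all growing arrays in each genotype, and the rise was 1.31 ± 0.22 (adjusted p = 0.00033), while a second, dimmer probe set of Slc26a2 gave 0.45 (adjusted p = 0.12). The sodium-driven bicarbonate exchanger Slc4a8 rose by 1.02 ± 0.14 (adjusted p = 4.8e-05), from 38.6, 49.3 and 51.8 to 126 and 91.7 in WT and from 27.4, 25.6 and 27.4 to 94.4 and 55.5 in KO. The potassium-chloride cotransporters Slc12a7 and Slc12a4 rose by 0.69 ± 0.14 and 0.61 ± 0.15. Among sodium-phosphate cotransporters, Slc20a1 fell by 0.62 ± 0.18 (adjusted p = 0.017) and Slc20a2 fell by 0.50 ± 0.14 (adjusted p = 0.013). In WT cells the 24 h arrays of Slc20a1 disagreed, at 367 and 816 against 760, 940 and 884 in growing cells, and without WT 24 h replicate 1 its change was -0.34, and without both first 24 h arrays -0.36, neither called. The adaptor Slc9a3r1 (NHERF1) stood at 0.03 ± 0.17.

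Among the 22 metal transporters 5 were called higher, Slc31a2 among them, and 2 lower, with a median change of 0.22. The 31.8% called was close to the 28.6% of genes picked by the same rule (21.0% of all probe sets). The iron exporter Slc40a1 (ferroportin) read 51.3, 62.7 and 51.4 in growing WT cells and 101 and 131 at 24 h, and 39.1, 69.6 and 28.4 against 105 and 83.0 in KO. Its arrays did not overlap between growing and 24 h, and it rose by 0.88 ± 0.18 (adjusted p = 0.0018), with 1.13 from its second probe set. The zinc importer Slc39a4 rose by 0.70 ± 0.17, and the zinc carriers of the secretory pathway Slc30a7 and Slc30a6 by 0.40 ± 0.11 and 0.36 ± 0.10. The copper transporter Slc31a2, kept only through its 24 h arrays, stood at 0.70 ± 0.16. The zinc transporter Slc39a6 fell by 0.34 ± 0.12 (adjusted p = 0.044). The iron importer Slc11a2 (DMT1) was called lower at -0.39 ± 0.12 (adjusted p = 0.024), but its other probe sets gave -0.02 and, from a dim one, 0.64 (adjusted p = 0.030), so the probe sets of Slc11a2 did not give 1 direction.

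The 26 mitochondrial carriers held 4 that rose and 2 that fell, 23.1%, near the share of all probe sets. Slc25a20, which brings acylcarnitines into mitochondria for fatty acid oxidation, rose by 0.83 ± 0.15 (adjusted p = 0.00062), from 109, 87.3 and 82.9 to 285 and 179 in WT and from 155, 101 and 171 to 239 and 172 in KO. Its 24 h arrays lay above the growing arrays in both genotypes, in KO by 172 against 171 at the closest. The other rises were Slc25a30 (0.41 ± 0.13), the mitochondrial NAD carrier Slc25a51 (0.38 ± 0.10) and the outer-membrane protein Slc25a46 (0.34 ± 0.10). The oxoglutarate carrier Slc25a11 and the aspartate-glutamate carrier Slc25a13 changed by -0.48 ± 0.11 and -0.32 ± 0.09, both called. The phosphate carrier Slc25a3 (0.13 ± 0.09) and the ADP/ATP carriers Slc25a4 (0.10 ± 0.09) and Slc25a5 (-0.16 ± 0.11) did not pass the test. Of the 7 monocarboxylate and organic ion carriers, Slc22a7 (OAT2) rose by 0.80 ± 0.13 and the lipocalin receptor Slc22a17 by 0.50 ± 0.13 (0.31, not called, without both first 24 h arrays). The lactate and pyruvate carrier Slc16a1 (MCT1) was called lower at -0.34 ± 0.12 (adjusted p = 0.046), a call kept in 8 of 24 alternatives, and Slc16a3 (MCT4) was not called (-0.16 ± 0.20). The 3 called of these 7 made 42.9%, in the smallest of these groups apart from the 2 others. The remaining called gene, Slc66a2, rose by 0.45 ± 0.13.

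**Figure D2:**
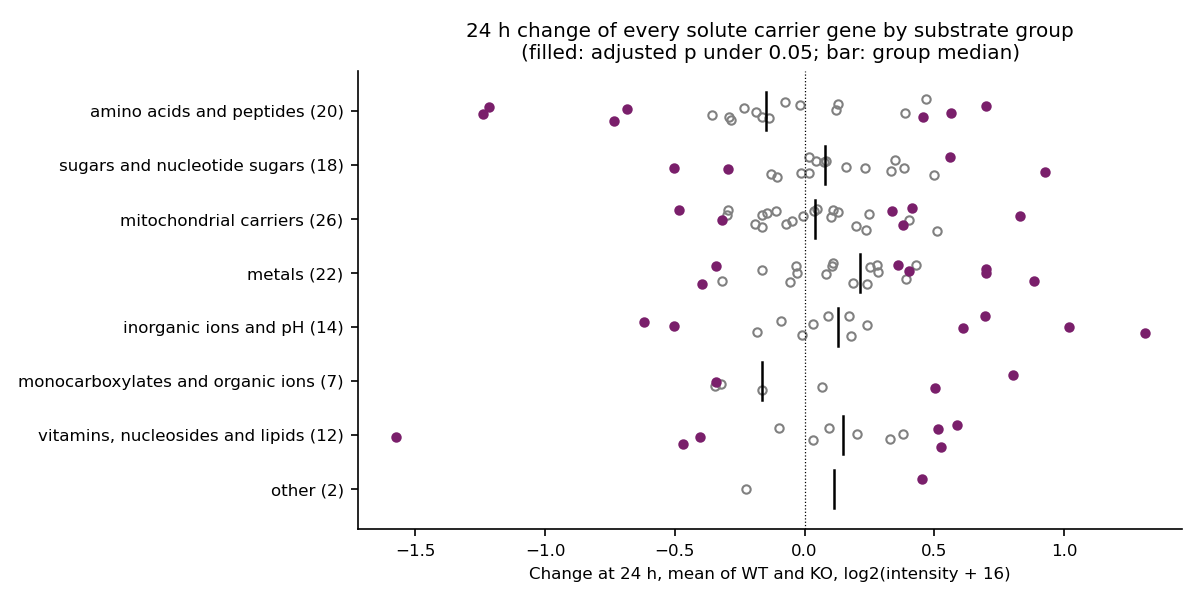
Change at 24 h (mean of WT and KO, log2(intensity + 16)) of each of the 121 genes by substrate group; filled points passed an adjusted p under 0.05, open points did not, and bars are group medians. Calls lie on both sides of 0 in every group except the 2 others, and the deepest falls are Slc27a2 at -1.58, Slc7a3 at -1.24 and Slc7a5 at -1.22.

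Taken by genotype, 12 genes rose and 7 fell in WT cells, 15.7% of 121 against 8.61% of all probe sets. By direction, 9.92% rose and 5.79% fell in WT, against 5.37% and 3.24% of all probe sets. In KO cells 10 rose, Slc31a2 among them, and 5 fell, 12.4% against 8.02%. By direction, 8.26% rose and 4.13% fell in KO, against 5.01% and 3.02%. No share of genes picked by the same probe set and level rule stands beside these shares by genotype. Over both genotypes that share was 28.6%, above the 21.0% of all probe sets. Of the genes called by genotype, 11 were called in both, among them Slc7a3, Slc7a5, Slc27a2, Slc35a4, Slc2a1, Slc26a2, Slc4a8 and Slc40a1. All 19 genes called in WT had the same sign in KO, and all 15 called in KO had the same sign in WT. Across the 121 genes 93 had the same sign, and the changes correlated with r = 0.84, a description over genes measured on the same arrays. The test of the difference, the interaction of genotype and 24 h, called none of the 121 in limma (0% of all probe sets). An unadjusted p under 0.05 was found for 4, a count without a share of all probe sets at that threshold. The largest interactions were a lesser rise of Slc25a20 in KO (-0.66 ± 0.29) and a difference of 0.65 in Slc38a2. The latter gene stood at -0.46 in WT and 0.19 in KO, and neither interaction was called.

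**Figure D3:**
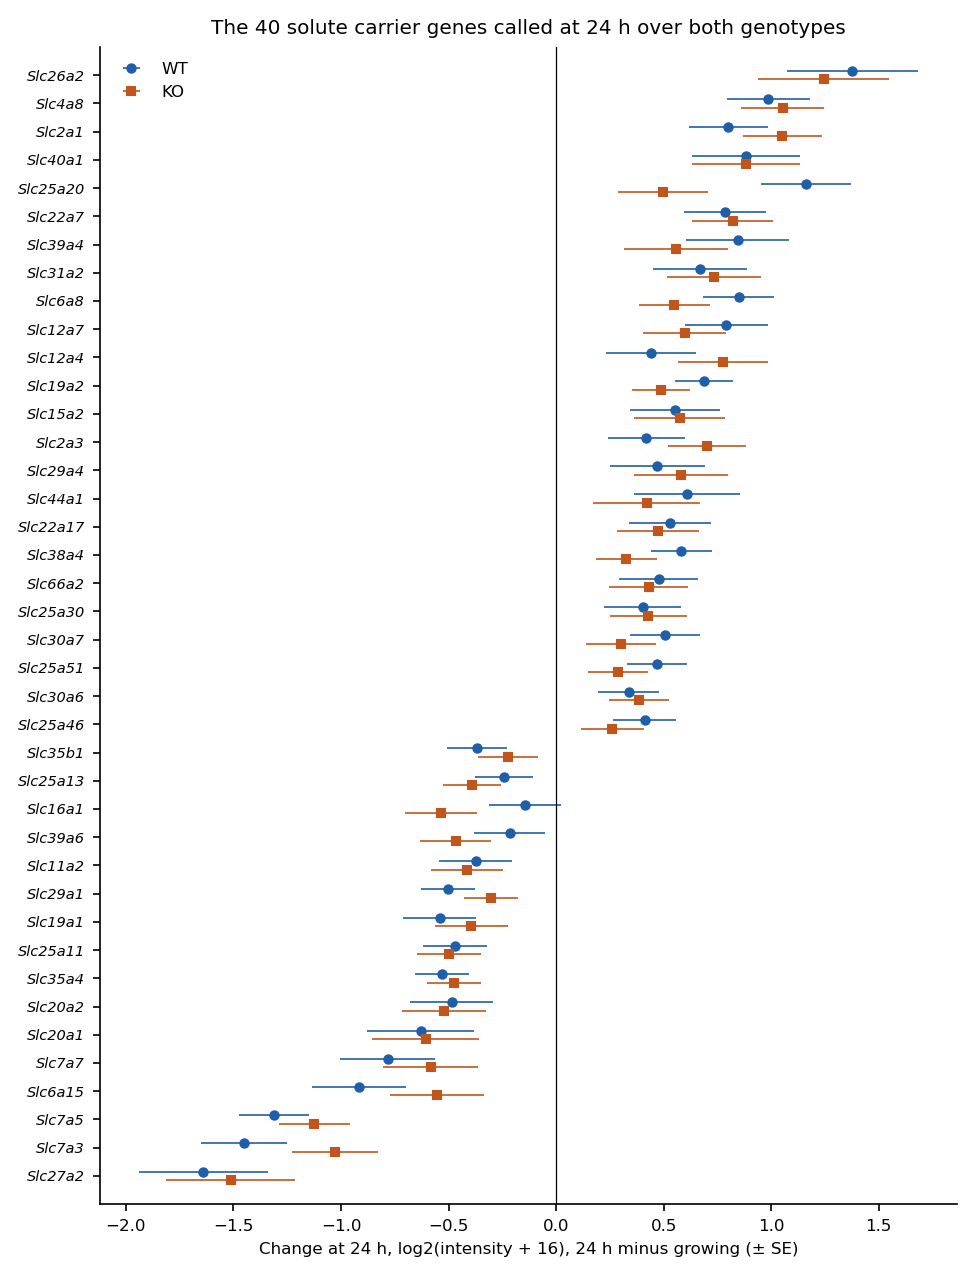
Change at 24 h with its standard error (log2(intensity + 16), 24 h minus growing) for the 40 called genes in WT (blue circles) and KO (orange squares). The genotypes lie on the same side of 0 for each gene shown, from Slc27a2 at -1.64 and -1.51 to Slc26a2 at 1.38 and 1.24.

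The 24 h groups held 2 arrays each, and the first of each pair gave the larger changes. The median change of the 40 called genes, signed by their direction, was 0.67 and 0.49 on WT replicates 1 and 2 and 0.56 and 0.49 on KO replicates 1 and 2. All 40 kept their direction on each of the 4 arrays. The 40 were called on these same arrays, so a kept direction here and below is a description. With both first arrays left out, an alternative chosen after seeing the data, 14 of the 40 were still called and all 40 kept their direction, and the count fell to 15 over both genotypes, to 5 in WT and to 2 in KO. The 14 were Slc2a1, Slc4a8, Slc6a8, Slc7a3, Slc7a5, Slc19a2, Slc20a2, Slc22a7, Slc25a11, Slc25a20, Slc26a2, Slc27a2, Slc35a4 and Slc40a1. Growing and 24 h arrays of 1 genotype shared a run only once in each genotype. There, 40 of 40 changed in the same direction in WT and 38 of 40 in KO, on arrays that had also entered the calls. With run as a block, the changes of Slc7a5, Slc7a3 and Slc27a2 were -1.28, -1.29 and -1.76, and the rises of Slc2a1 and Slc26a2 were 0.96 and 1.07.

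At 2 h, 1 gene of the 121 was called. Slc19a2, the thiamine transporter, read 259, 231 and 241 in growing WT cells and 461, 495 and 451 at 2 h. In KO cells Slc19a2 read 317, 258 and 364 growing and 452, 480 and 463 at 2 h. Every 2 h array lay above every growing array of its genotype, and the rise was 0.90 ± 0.12 in WT (adjusted p = 0.00099) and 0.56 ± 0.12 in KO, which missed the threshold (adjusted p = 0.093). Over both genotypes it was 0.73 ± 0.09 (adjusted p = 9.6e-05), with 0.87 from its second probe set. The called share was 0.826% of the 121 genes against 0.395% of all probe sets over both genotypes, and 0.826% against 0.147% in WT. In KO no SLC gene was called in limma (0.107% of all probe sets). At an unadjusted p under 0.05 there were 11, a count without a share of all probe sets at that threshold.

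Within single runs Slc19a2 rose by 0.79, 1.05 and 0.86 in WT and by 0.86 and 0.34 in KO. At 24 h it still read 380 and 424 in WT and 444 and 439 in KO, above all growing arrays. The 2 h and 24 h changes share their growing arrays. Besides Slc19a2, the largest differences at 2 h over both genotypes were 0.39 for Slc12a4, 0.38 for Slc35e4, -0.41 for Slc27a2, -0.31 for Slc30a3 and -0.28 for Slc6a15, and none of these was called. The interaction of genotype and 2 h called none in limma (0% of all probe sets). At an unadjusted p under 0.05 there were 10, again without a share of all probe sets at that threshold. The largest interaction was Slc25a45 at 0.88 (adjusted p = 0.30), and Slc16a1 stood at -0.64 (adjusted p = 0.33).

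**Figure D4:**
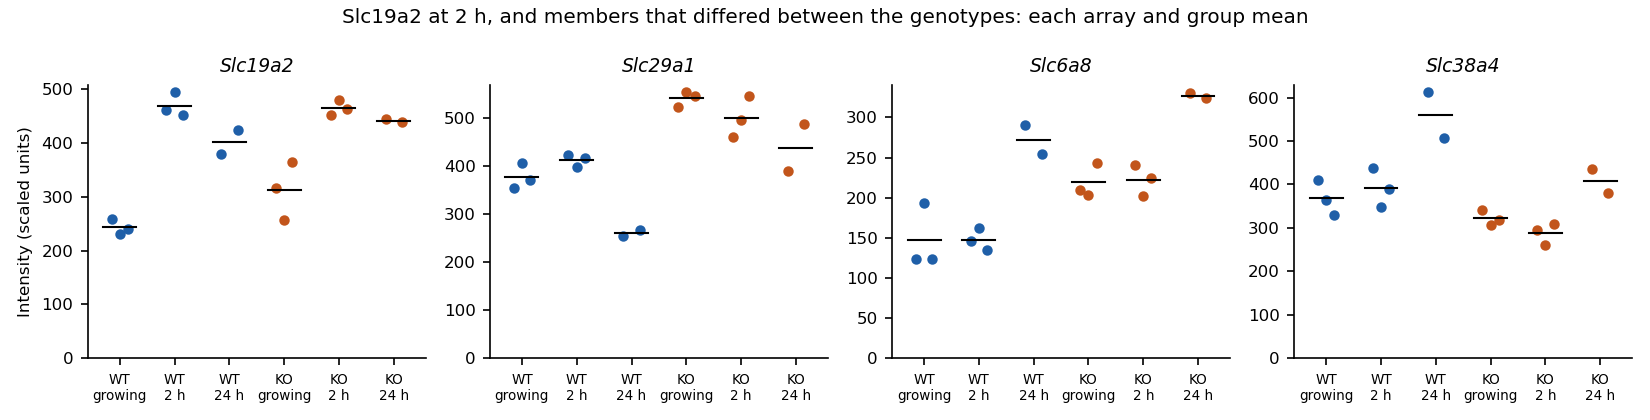
Intensity (scaled units, linear axis from 0) of Slc19a2, Slc29a1, Slc6a8 and Slc38a4 in the 6 groups; points are arrays (blue WT, orange KO) and bars are group means. Slc19a2 rises at 2 h to between 451 and 495 in both genotypes, and Slc29a1 is higher in KO than in WT in all 3 states.

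KO differed from WT in few of these genes. In single states none of the 121 passed in limma. Of all probe sets, the share called was 0.248% for growing cells, 0.395% for 2 h and 0.0620% for 24 h. An unadjusted p under 0.05 was found for 12, 23 and 11 SLC genes, listed by state as before. The shares belong to the adjusted threshold. No share of all probe sets at the unadjusted threshold stands beside these counts, so they are descriptions. With run as a block Slc6a8 was called in growing cells and Slc25a20 and Slc27a2 at 2 h. Leaving out 1 array called Slc6a8 (without WT growing replicate 2) or Slc29a1 (without either KO 24 h array) in growing cells, and Slc29a1 at 24 h (without KO 24 h replicate 1, and also with quantile normalization). In growing cells the largest differences, none called, were Slc6a8 (0.55), Slc26a2 (0.54) and Slc25a20 (0.52), and Slc4a8 (-0.54), Slc27a2 (-0.54) and Slc39a1 (-0.52). At 2 h they were Slc30a3 (0.68), Slc25a29 (0.59) and Slc6a9 (0.59), and Slc27a2 (-0.75), Slc39a14 (-0.56) and Slc16a1 (-0.54). At 24 h they were Slc29a1 (0.70, adjusted p = 0.063), Slc25a26 (0.56) and Slc38a2 (0.56), and Slc9b1 (-0.69), Slc25a5 (-0.64) and Slc66a1 (-0.62). Over the growing and 2 h arrays alone Slc9b1 had a mean of 28.1. It was therefore kept only through its 24 h arrays, and its difference at 24 h is a description. Over the mean of the 3 states, 3 genes were higher in KO and 4 lower, 5.79% against 4.13% of all probe sets (2.01% higher and 2.12% lower) and 5.97% of genes picked by the same rule. Slc29a1, which carries nucleosides along their gradient, read 355, 406 and 372 in growing WT cells and 523, 555 and 546 in KO. At 2 h it read 422, 399 and 417 in WT and 461, 496 and 546 in KO, and at 24 h 256 and 267 against 389 and 487. KO lay above WT without overlap in each state, and the difference was 0.49 ± 0.07 (adjusted p = 0.00056), a call kept in all 24 alternatives.

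The creatine transporter Slc6a8 was higher in KO by 0.45 ± 0.09 (adjusted p = 0.0090), with 0.74 from its second probe set. It read 124, 193 and 123 in growing WT cells against 209, 204 and 244 in KO, 146, 162 and 135 against 241, 202 and 224 at 2 h, and 290 and 255 against 331 and 324 at 24 h. WT and KO did not overlap in any state. Slc37a3 was higher by 0.33 ± 0.09 (adjusted p = 0.046), a call lost in 18 of 24 alternatives.

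Of the genes lower in KO, Slc38a4, a neutral amino acid carrier, read 410, 365 and 331 in growing WT cells against 340, 308 and 317, then 438, 347 and 388 against 296, 260 and 310 at 2 h and 612 and 508 against 436 and 381 at 24 h. Its groups overlapped in growing cells only, and the difference was -0.35 ± 0.08 (adjusted p = 0.018), with -0.43 (adjusted p = 0.020) from its second probe set. The zinc transporter Slc39a1 (-0.39 ± 0.10), Slc4a8 (-0.43 ± 0.11) and the ADP/ATP carrier Slc25a5 (-0.34 ± 0.09) passed at adjusted p values of 0.030 to 0.031, and each lost its call in 13 or 14 of 24 alternatives. With run as a block Slc29a1 (0.47), Slc6a8 (0.44), Slc39a1 (-0.40) and Slc38a4 (-0.27) were still called. Without the arrays of the second day Slc29a1 was the 1 gene called. Within runs, Slc29a1 differed by 0.54 and 0.53 in growing cells, 0.20 and 0.38 at 2 h and 0.83 at 24 h. Slc27a2 was at -0.56 ± 0.17 (adjusted p = 0.067), and with run as a block it passed at -0.72 (adjusted p = 0.0047), as did Slc25a20 at 0.40 (adjusted p = 0.017) and Slc6a15 at -0.43 (adjusted p = 0.040). Slc26a2 stood at 0.37 ± 0.17 (adjusted p = 0.25) and Slc66a1 at -0.41 ± 0.18 (adjusted p = 0.21). For Slc2a3 the probe sets differed: the chosen one gave -0.19 ± 0.10 and was not called, and the others gave -0.43, -0.69 (adjusted p = 0.011) and -0.69 (adjusted p = 0.0089).

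Beside the genotype comparison, markers of primitive endoderm were higher in KO. Over the states 6 of 12 tested were called, all higher, from 0.42 for Sox7 to 1.86 for Srgn, against 2.01% higher among all probe sets. In growing WT cells Cubn and Srgn were near background, with means of 1.94 and 7.54, against 42.0 and 49.9 in KO. The summed level of all 12 primitive endoderm markers was between 345 and 520 in growing WT cells and between 486 and 617 in growing KO cells. At 24 h this sum was between 555 and 806 in WT and between 801 and 1157 in KO. The 6 trophectoderm markers tested had adjusted p values of at least 0.18 in KO against WT. At 24 h over both genotypes, 13% of all probe sets were called higher. So were 2 of the 12 primitive endoderm markers (Lamb1 and Cubn) and 2 of the 6 trophectoderm markers (Eomes and Tfap2c). The part of these cells in the SLC changes was not tested.

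Partner proteins and amino acid response genes were read beside the carriers. Amino acid starvation acts through the transcription factor ATF4, whose known targets in mammals include Slc7a5, Slc3a2 and Slc7a11 together with enzymes of serine and proline synthesis. Of 18 such response genes tested, 10 fell and 2 rose at 24 h, against 7.98% lower and 13% higher among all probe sets, with a median of -0.47 against 0.07. The falls included Aldh18a1 (-1.27), Mthfd2 (-1.18), and Shmt2 (-1.07), enzymes of proline and one-carbon metabolism, and the asparaginyl-tRNA synthetase Nars (-0.61). The rises were Ddit4 (2.04) and Atf3 (1.25). Asparagine synthetase, Asns, stood at -0.07 and was not called.

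Among 6 accessory proteins and sodium pump subunits, 1 was called at 24 h, against 21.0% of all probe sets. Embigin (Emb), a chaperone of monocarboxylate transporters, fell by 0.53 (adjusted p = 0.0021), and its difference between KO and WT was -0.60 (adjusted p = 0.00057). Basigin (Bsg), the usual partner of Slc16a1, stood at 0.17 at 24 h and was not called. Among 16 transporters of the superfamily that carry other symbols, 2 were called at 24 h, against 21.0% of all probe sets. Both were higher: Flvcr2 by 1.03 (adjusted p = 0.00058) and the phosphate exporter Xpr1 by 0.52 (adjusted p = 0.010).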

How the data were processed

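Expression was measured on 16 Affymetrix mouse arrays, 1 per sample. The deposited values are linear intensities, 1 per probe set and array, and the authors had scaled them: the mean after trimming 2% at each end was 100 on every array. How probes were summarised into probe sets is not stated. The authors' other deposited files hold instrument settings, per the file headers, with a hybridisation clock time for each array. The hybridisation runs were formed here from these times, by grouping arrays that followed each other closely.

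Of 22690 probe sets, 64 controls were left out, and 20380 had 1 symbol. The test was limma 3.58.1 (R 4.3.3) on log2(intensity + 16) (6 group means, empirical Bayes with trend, Benjamini-Hochberg over 17736 probe sets with a group mean above the 30th percentile). "Called" means an adjusted p under 0.05. The steps were tested on simulated data. Genes were named by a rule: up to 12 called genes per direction, the largest rises and falls, and a list of well-known carriers; other called genes at 24 h were named after their values were seen. The genes, lists and tests were chosen with earlier results of these data known. Alternatives varied the added constant, filter, normalization, blocks and arrays. Promoter sequences came from RefSeq, GRCm38.p6. The inactivated gene's measurement is not reported here, and genotype labels were taken as given.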

Additional observations from a re-analysis of the deposited data

How the results depend on the processing

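For the 24 h change over both genotypes, the count of called genes stayed within 30 and 44 of 121 under the constants 1 and 64, no filter, quantile normalization, the run block, the replicate block, and leaving out the second day or the arrays of high 18S signal, and all 40 genes kept their direction in each of these. Most of the arrays used for the calls stayed in each alternative, so the kept direction is a description. Leaving out single arrays gave a count of 28 to 46. Of the 40, 21 kept their 24 h call in all 24 alternatives other than leaving out both first 24 h arrays. Slc16a1 lost it in 16, Slc39a6 in 15, Slc35b1 and Slc44a1 in 12, Slc25a30 in 7, Slc29a4 in 6, Slc25a46 in 5, Slc11a2 and Slc25a13 in 4, and the other 10 in 1 to 3. Without the 24 h arrays numbered replicate 1 the count was 15, with 5 in WT and 2 in KO, and among the genes that lost their call were Slc2a3, Slc7a7, Slc20a1, Slc31a2 and Slc38a4. Without the second day the count was 8 in WT and 5 in KO at 24 h. Leaving out single arrays gave 4 to 21 in WT, where 4 was without WT 24 h replicate 1, and 2 to 15 in KO, where 2 was without KO 24 h replicate 1 and 6 without KO growing replicate 1. The 2 h count stayed at 1 in WT and over both genotypes, and at 0 in KO, when single arrays were left out. In KO against WT over the states the count was 4 with no filter, 1 without the second day, 4 without the arrays of high 18S signal, 3 without the first 24 h arrays, and 3 to 6 without single arrays. In growing cells it was 1 with the run block (Slc6a8), 1 with the replicate block and 1 without the first 24 h arrays (both Slc29a1), and 0 to 1 without single arrays. At 2 h it was 2 with the run block (Slc25a20 and Slc27a2) and 0 without single arrays. At 24 h it was 1 with quantile normalization, 1 with the replicate block (both Slc29a1), and 0 to 1 without single arrays. The interactions gave 0 throughout the arrays left out.

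The main test did not take the replicate numbers as pairing the samples, although arrays with the same number were more alike. Of 36 pairs of arrays with the same number, 21 had correlated deviations above 0.1 (median 0.12, from -0.09 to 0.29). Among pairs with other numbers it was 1 of 70 (median -0.06). In a group of 2 arrays the deviations mirror each other, so these correlations are not independent. The replicate block called 44 genes at 24 h over both genotypes, 18 in WT and 16 in KO, 8 in KO against WT over the states, and 1 at 2 h.

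Over both genotypes at 24 h, 34 of the 81 uncalled genes changed sign in at least 1 alternative. None of the 40 called ones did, including without both first 24 h arrays. The 40 had been called on the same arrays, so this contrast is a description. Among the uncalled genes followed by name, 3 changed sign. Slc9a3r1 went to -0.16 with the run block, -0.012 with the replicate block and -0.048 without the second day, and lay between -0.17 and 0.39 when arrays were left out. Slc38a2 lay between -0.25 and 0.012 when arrays were left out, the latter without both first 24 h arrays, and Slc16a3 between -0.37 and 0.049, the latter without WT 24 h replicate 1. The causes were not tested. With 2 arrays per group at 24 h, the number of arrays limits every 24 h result.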
